A study of Mus musculus with 6 samples.

Results

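The Toll-like receptor genes Tlr1, Tlr2, Tlr3, Tlr4, Tlr6, Tlr7, Tlr8, Tlr9 and Tlr13, with Myd88, were described in wild-type and Men1 knockout mouse cells. Members were matched by gene symbol, and they were chosen with earlier results of these data known. All 10 were among the 15824 genes of the expression table and among the 11817 genes that passed the filter on low counts. RNA was sequenced from cells sorted by flow cytometry and labelled alveolar macrophages, the resident macrophages of the airspaces, from mice of 8 weeks. A wild-type group (WT) and a Men1 knockout group (KO) had 3 libraries each. Men1 encodes menin, a nuclear scaffold protein that binds histone methyltransferase complexes. The labels used here do not give the strain, the Men1 allele, any Cre driver or the sex, and do not state how many animals stand behind each group. The p-values therefore measure the spread between these libraries, which may be technical.

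Toll-like receptors recognise microbial molecules through an ectodomain of leucine-rich repeats and signal through a cytoplasmic TIR domain. Receptors of the cell surface bind mainly microbial lipids and proteins: TLR2 pairs with TLR1 for triacylated lipopeptides or with TLR6 for diacylated lipopeptides, and TLR4 with its co-receptor MD-2 senses lipopolysaccharide. Receptors of the endosome bind nucleic acids, with double-stranded RNA for TLR3, single-stranded RNA for TLR7 and TLR8, CpG DNA for TLR9 and bacterial ribosomal RNA for the rodent receptor TLR13. MYD88 is the adaptor of all of these receptors except TLR3, which signals through TRIF.

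Libraries held 19955232 to 20151985 counts. Men1 itself had 639, 594 and 603 counts in the WT libraries and 150, 149 and 165 in the KO libraries, so that Men1 was 3.80-fold lower in KO (edgeR, adjusted p = 7.24e-24) and still detected. All 4 Y-linked genes examined had at least 283 counts in every WT library and at most 2 in any KO library. The genotype and the sex of the animals therefore cannot be told apart in any result below. Of 12 alveolar macrophage markers, 10 were in the table and 4 of these (Fabp1, Ear1, Ear2 and Plet1) had at most 10 counts in every library. Siglecf, which defines this cell type, was at 2.06 ± 0.381 in WT and 1.34 ± 0.154 in KO (CPM, counts scaled to a common library size; SD, n = 3). Of the 6 alveolar markers tested, 2 were higher (Marco and Chil3) and 3 lower (Siglecf, Pparg and Itgax, with log2 fold changes of -0.62, -0.54 and -0.27), with a median of -0.09. The summed level of the 10 alveolar markers was 319.9 to 335.4 in WT and 1075 to 1112 in KO in the deposited TPM (transcript shares corrected for length), a sum in which Marco alone went from 155.5 ± 2.56 to 930.6 ± 19.3 TPM. Of 6 general macrophage markers, 5 were higher in KO and Cd68 did not pass, with a median log2 fold change of 0.77. Their sum was 4767 to 4856 TPM in WT and 6132 to 6149 TPM in KO, with Adgre1, which encodes F4/80, 2.54-fold and Csf1r 1.91-fold higher. The part of these markers in the receptor differences was not tested.

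Of the 10 genes, 7 were higher in KO (Tlr1, Tlr2, Tlr3, Tlr6, Tlr8, Tlr9 and Myd88), 1 was lower (Tlr4), and Tlr7 and Tlr13 did not pass an adjusted p of 0.05 (edgeR quasi-likelihood test, Benjamini-Hochberg adjustment over all genes tested). Over all genes tested, 69.2% passed, 34.4% higher and 34.9% lower, so passing the threshold was common in these libraries, with both directions about equally frequent. The median log2 fold change was 0.40 for the 10 genes and 0.00 for all genes tested. Only Tlr1 and Tlr8 among the 10 rose at least 2-fold, which 3.26% of the genes tested did; none fell that far, as 4.94% of the genes tested did. CPM did not overlap between the groups for 71.2% of the genes tested. With DESeq2, 7 of the 10 were higher and 0 lower, against 29.7% and 29.8% of all genes tested. With an assumed biological variation of 0.1, 6 were higher and 0 lower, against 18.4% and 18.8%. In bulk RNA, a change in the share of cells that express a gene and a change in RNA per cell cannot be told apart.

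Per transcript length, Tlr13 had the highest level of the 9 receptors in both groups. In WT the order of mean TPM was Tlr13 at 207.6 ± 1.61, Tlr7 at 81.7 ± 1.41, Tlr2 at 77.8 ± 3.15, Tlr8 at 28.8 ± 1.01, Tlr1 at 23.1 ± 0.986, Tlr4 at 21.9 ± 0.129, Tlr6 at 14.6 ± 0.591, Tlr9 at 9.17 ± 0.313 and Tlr3 at 3.47 ± 0.606 (SD, n = 3). In that order 2 neighbouring pairs overlapped between libraries, Tlr7 with Tlr2 and Tlr1 with Tlr4. In KO the order was Tlr13 at 185.1 ± 1.98 TPM, Tlr2 at 95.7 ± 1.11, Tlr7 at 73.1 ± 0.508, Tlr1 at 58.6 ± 2.07, Tlr8 at 54.9 ± 0.835, Tlr4 at 18.97 ± 0.694, Tlr6 at 14.5 ± 0.906, Tlr9 at 11.7 ± 0.144 and Tlr3 at 4.09 ± 0.457. No neighbours overlapped in KO, where Tlr2 stood above Tlr7 and Tlr1 above Tlr8.

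**Figure D1:**
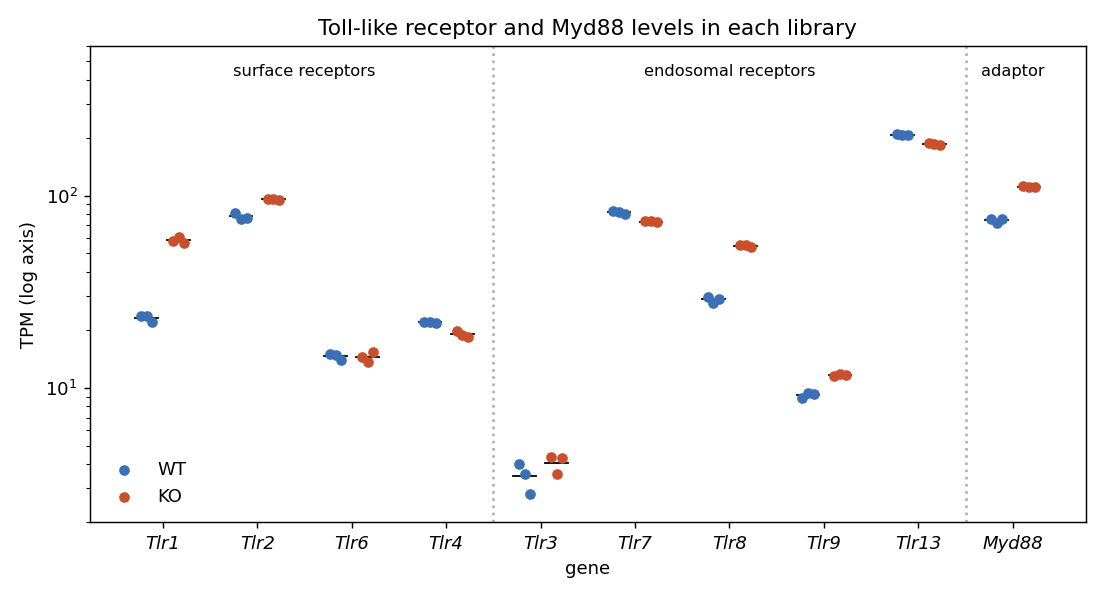
Level of each receptor and of Myd88 in TPM (log axis) in the 3 WT and 3 KO libraries, with points for libraries and bars for group means. Tlr13 is the highest receptor in both groups, and the groups of Tlr1 (21.94 to 23.73 TPM in WT, 56.72 to 60.8 in KO) and Tlr8 lie farthest apart.

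Tlr1, the partner of Tlr2 for triacylated lipopeptides, differed most. Tlr1 (gene ID 21897, chr5:64924680-64933600, GRCm38.p6) had 844, 854 and 803 counts in the WT libraries and 2222, 2300 and 2172 in the KO libraries. Every KO library was thus far above every WT library. The log2 fold change was 1.48 (SE 0.04), a 2.78-fold higher level in KO (edgeR, adjusted p = 1.27e-28).

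Tlr6, the partner of Tlr2 for diacylated lipopeptides, lies beside Tlr1 on the same chromosome (gene ID 21899, chr5:64953092-64970942). It had 552, 563 and 535 counts in WT and 614, 563 and 635 in KO. The ranges of counts met at 563, and CPM did not overlap (26.9 ± 0.796 in WT and 30.8 ± 1.83 in KO). The log2 fold change was 0.19 (SE 0.05), 1.14-fold higher in KO (edgeR, adjusted p = 0.00149), but on the TPM scale Tlr6 had a log2 difference of -0.01 (limma on log2(TPM + 1), adjusted p = 0.861) and its groups overlapped. The direction of Tlr6 thus depended on the scale.

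Tlr1 and Tlr6 are paralogs whose transcripts share long identical stretches, shown here because the deposited counts of both genes were not whole numbers in all 6 libraries. The sum of Tlr1 and Tlr6 was whole in each library (1396, 1417 and 1338 counts in WT; 2836, 2863 and 2807 in KO; tolerance 0.006). For each of these genes, no gene other than its paralog gave a whole sum. Of 2976 windows of 50 bases in the longest Tlr1 transcript of the GENCODE annotation, 454 (15.26%) occur in Tlr6, and 8.85% of the windows of 100 bases do. The longest identical run has 229 bases of coding sequence, at chr5:64925537-64925765 in Tlr1 and chr5:64953828-64954056 in Tlr6, both on the minus strand of GRCm38. It is given from the transcript strand:
Tlr1 and Tlr6 shared run: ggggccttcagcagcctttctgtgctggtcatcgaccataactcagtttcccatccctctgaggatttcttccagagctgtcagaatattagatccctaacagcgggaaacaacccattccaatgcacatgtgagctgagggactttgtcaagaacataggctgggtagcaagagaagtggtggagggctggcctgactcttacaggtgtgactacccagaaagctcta
A read that lies within this run cannot be placed in one of the genes from its sequence. With the counts of Tlr1 and Tlr6 added before the fit, a fit chosen after seeing the data, the sum was 2.13-fold higher in KO (log2 fold change 1.09, SE 0.03; edgeR, adjusted p = 7.42e-27). That sum involves no division of shared reads, and no other pair of the receptors shared any window of these sizes. The split of the difference between Tlr1 and Tlr6 rests on the authors' counting.

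The promoters of both genes are given because the neighbouring paralogs moved by different amounts. Of the 10 genes, 8 had an entry in the RefSeq promoter table (GRCm38.p6). The 250 bases before the start were searched on both strands for a PU.1-type core (GAGGAAGT), an ETS-IRF composite (GGAA and GAAA with 2 bases between), an interferon-response type motif (GAAA and GAAA with 2 bases between), an NF-kB type motif (GGGA and CC with 4 bases between), an AP-1 type motif (TGANTCA) and a TATA box (TATAAA). Bases inside annotated exons are left out of what is printed, and capitals mark the matches:
Tlr1 promoter, chr5:64933564-64933808, minus strand: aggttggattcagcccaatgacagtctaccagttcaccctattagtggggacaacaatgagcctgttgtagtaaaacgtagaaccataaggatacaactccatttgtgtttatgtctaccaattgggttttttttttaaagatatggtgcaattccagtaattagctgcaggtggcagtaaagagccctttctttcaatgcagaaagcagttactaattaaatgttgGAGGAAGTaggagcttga
Tlr6 promoter, chr5:64959167-64959416, minus strand: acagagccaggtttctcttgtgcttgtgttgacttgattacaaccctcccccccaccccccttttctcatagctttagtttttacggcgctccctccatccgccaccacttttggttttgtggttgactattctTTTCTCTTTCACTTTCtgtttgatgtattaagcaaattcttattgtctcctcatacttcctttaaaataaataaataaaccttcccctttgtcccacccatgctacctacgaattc
The Tlr1 window held 1 PU.1-type core, which 2.44% of the 32851 promoters in the table hold. The Tlr6 window held 2 overlapping interferon-response type matches on the opposite strand, a motif of 2.98% of promoters. A second listed start of Tlr1 held none of the motifs, and that of Tlr6 held 3 TATA boxes. Both Tlr6 windows lie inside the coordinates given for the gene and not at its outer end. These matches are descriptions of letters in a window.

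The genes on either side of this pair were also higher in KO. Klf3, a transcription factor gene, was 1.24-fold higher (log2 fold change 0.31, SE 0.04; edgeR, adjusted p = 6.17e-08). Fam114a1, which overlaps Tlr6 at 1 end, was 1.499-fold higher (log2 fold change 0.58, SE 0.07; edgeR, adjusted p = 7.74e-10). Whether the counting used strand is not stated in the labels, so reads in the overlap could belong to either gene.

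Tlr2, the shared partner of these receptors (gene ID 24088, chr3:83836272-83841824), had 2912, 2717 and 2752 counts in WT and 3677, 3646 and 3598 in KO. The groups did not overlap. Its log2 fold change was 0.44 (SE 0.03), 1.36-fold higher in KO (edgeR, adjusted p = 1.86e-16). Its promoter window held 1 NF-kB type match, as 17.6% of promoters do.

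Tlr4, the lipopolysaccharide receptor (gene ID 21898, chr4:66827551-66846581), had 2368, 2342 and 2364 counts in WT and 2259, 2120 and 2100 in KO. All KO libraries were below all WT libraries by a small amount. The log2 fold change was -0.07 (SE 0.03), 1.05-fold lower in KO (edgeR, adjusted p = 0.0359). The call was lost without WT replicate 1, 2 or 3 and without KO replicate 2 or 3 (edgeR, adjusted p 0.0635 to 0.202). It was also lost with DESeq2 (adjusted p = 0.107). Tlr4 passed as lower with library totals (log2 fold change -0.13; edgeR, adjusted p = 0.000326). On the TPM scale it passed as well (-0.20; limma on log2(TPM + 1), adjusted p = 0.00113). Both of these scales lay lower than the main fit for the whole table.

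Tlr8 differed most among the endosomal receptors. Tlr8 (gene ID 170744, chrX:167241123-167264329) had 1911, 1788 and 1856 counts in WT and 3839, 3775 and 3675 in KO. The groups were well apart. On the log2 scale the difference was 1.08 (SE 0.03), 2.11-fold higher in KO (edgeR, adjusted p = 1.12e-27). Its promoter window held 2 overlapping TATA box matches, a motif of 12.4% of promoters:
Tlr8 promoter, chrX:167264330-167264579, minus strand: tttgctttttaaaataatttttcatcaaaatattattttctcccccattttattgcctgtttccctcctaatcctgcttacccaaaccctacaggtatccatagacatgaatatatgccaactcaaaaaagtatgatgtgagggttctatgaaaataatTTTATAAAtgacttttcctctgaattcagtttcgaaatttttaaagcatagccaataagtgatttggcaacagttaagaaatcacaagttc

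Tlr7, which lies beside Tlr8 on the X chromosome and also senses single-stranded RNA (gene ID 170743, chrX:167303380-167330574), had 4485, 4430 and 4393 counts in WT and 4258, 4246 and 4195 in KO. After scaling, CPM overlapped between the groups (217.3 ± 2.95 in WT and 215.6 ± 1.66 in KO). Its log2 fold change was -0.01, with a 95% interval from -0.06 to 0.03 (edgeR, adjusted p = 0.679). Counts of Tlr7 were not whole in all 6 libraries, and no gene gave a whole sum with it; the longest transcripts of Tlr7 and Tlr8 shared no window of 50 bases.

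Tlr13, the receptor for bacterial ribosomal RNA (gene ID 279572, chrX:106143275-106160493), had 10925, 10782 and 10887 counts in WT and 10409, 10207 and 10169 in KO. CPM did not overlap (532.2 ± 3.39 in WT and 522.6 ± 5.23 in KO). In edgeR the log2 fold change was -0.03, with an interval from -0.06 to 0.01 (edgeR, adjusted p = 0.224). Its promoter window held none of the motifs. Tlr13 and Tlr7 passed as lower where libraries were scaled by their totals (log2 fold change -0.08 and -0.07) and on the TPM scale (-0.16 each, limma on log2(TPM + 1)).

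Tlr7, Tlr8 and Tlr13 are X-linked, and the groups differed in Y-linked counts. Of 385 X genes tested, 31.9% were higher and 37.4% lower, with a median log2 fold change of -0.04. Among 4 genes that escape X inactivation, Eif2s3x, Kdm5c and Kdm6a were higher in KO (log2 fold change 0.45, 0.55 and 0.49) and Ddx3x was lower (-0.31). Xist, the RNA made from the inactive X, was not analysed here. Beside Tlr8, Tmsb4x, which encodes thymosin beta, was 1.55-fold higher (edgeR, adjusted p = 1.12e-27), and beside Tlr7, Prps2 had a log2 fold change of -0.25 (edgeR, adjusted p = 2.23e-05). The part of sex in the difference of Tlr8 was not tested.

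Tlr9, the receptor for CpG DNA (gene ID 81897, chr9:106222598-106226876), had 392, 419 and 416 counts in WT and 548, 556 and 551 in KO. The groups did not overlap. The fitted log2 fold change was 0.49 (SE 0.05), 1.40-fold higher in KO (edgeR, adjusted p = 5.8e-10). Its promoter window held 1 AP-1 type match, as 6.75% of promoters do.

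Tlr3, the receptor for double-stranded RNA (gene ID 142980, chr8:45395665-45411075), was the least abundant. It had 231, 204 and 162 counts in WT and 264, 215 and 263 in KO, and the groups overlapped. KO differed from WT by a log2 fold change of 0.37 (SE 0.10), 1.29-fold higher in KO (edgeR, adjusted p = 0.00103). Without WT replicate 3 the value was 0.24 (edgeR, adjusted p = 0.0275). Tlr3 did not pass on the TPM scale (log2 difference 0.19; limma on log2(TPM + 1), adjusted p = 0.136). Its promoter window held 2 NF-kB type matches, a motif of 17.6% of promoters.

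Myd88, the shared adaptor (gene ID 17874, chr9:119335934-119340018), had 1702, 1636 and 1741 counts in WT and 2712, 2668 and 2674 in KO. The KO libraries were close to one another and all above WT. On the log2 scale KO differed by 0.72 (SE 0.03), 1.65-fold higher in KO (edgeR, adjusted p = 7.12e-22). Its promoter window held 1 interferon-response type match near the start and 2 overlapping TATA box matches further away:
Myd88 promoter, chr9:119340042-119340268, minus strand: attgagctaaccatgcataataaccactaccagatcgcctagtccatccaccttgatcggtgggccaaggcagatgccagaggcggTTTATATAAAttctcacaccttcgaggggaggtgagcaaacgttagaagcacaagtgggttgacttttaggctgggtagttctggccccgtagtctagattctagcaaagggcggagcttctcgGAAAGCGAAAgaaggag

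**Figure D2:**
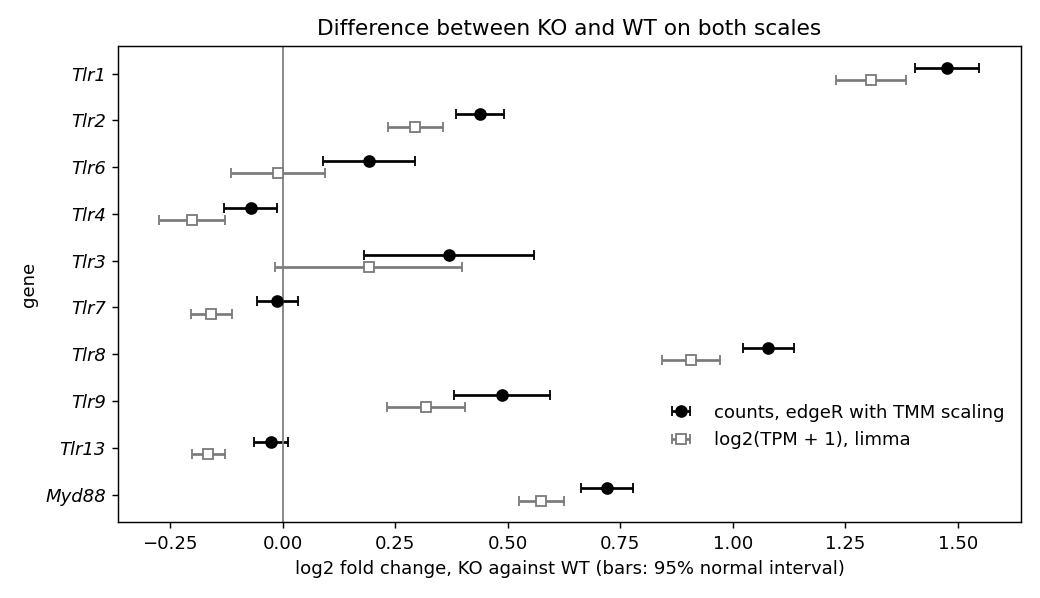
Log2 fold change of KO against WT for the 10 genes from counts (edgeR with TMM scaling, filled circles) and on the log2(TPM + 1) scale (limma, open squares). Bars show 95% intervals by a normal approximation. Tlr1 and Tlr8 lie farthest to the right on both scales, Tlr6 moves from 0.19 to -0.01, and Tlr7 and Tlr13 move from near 0 to -0.16.

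The TPM scale lay lower than the count scale for the whole table. The median log2 difference of all genes tested was 0.12 lower on the log2(TPM + 1) scale, where limma called 2463 genes (20.8%) higher and 5781 (48.9%) lower, against 4060 and 4119 from counts with edgeR. Of the 10 genes, 5 passed as higher and 3 as lower on that scale. Tlr1, Tlr2, Tlr8, Tlr9 and Myd88 were called higher in every fit that held them.

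The members of co-receptor pairs moved by unequal amounts. The ratio of Tlr1 to Tlr2 in TPM was 0.289, 0.312 and 0.288 in the WT libraries and 0.604, 0.631 and 0.601 in the KO libraries. The ratio was thus 2.06-fold higher in KO, with no overlap. The ratio of Tlr6 to Tlr2 was 0.184, 0.196 and 0.183 in WT and 0.151, 0.141 and 0.163 in KO, a log2 difference of -0.31. Tlr1 was 1.57, 1.59 and 1.58 times Tlr6 in WT and 3.997, 4.48 and 3.69 times Tlr6 in KO. All of the ratios that hold Tlr1 or Tlr6, that of Tlr1 to Tlr2 included, rest on the authors' division of shared reads. The sum of Tlr1 and Tlr6 was 48.4% ± 2.10 of Tlr2 in WT and 76.4% ± 0.874 in KO (SD, n = 3). Among endosomal receptors, Tlr7 was 2.79, 2.96 and 2.76 times Tlr8 in WT and 1.33, 1.32 and 1.34 times Tlr8 in KO, a log2 difference of -1.09. For each of the 4 ratios the two-sided exact permutation p was 0.1 (adjusted over the 4 ratios, 0.1), the smallest that 3 against 3 libraries allow.

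**Figure D3:**
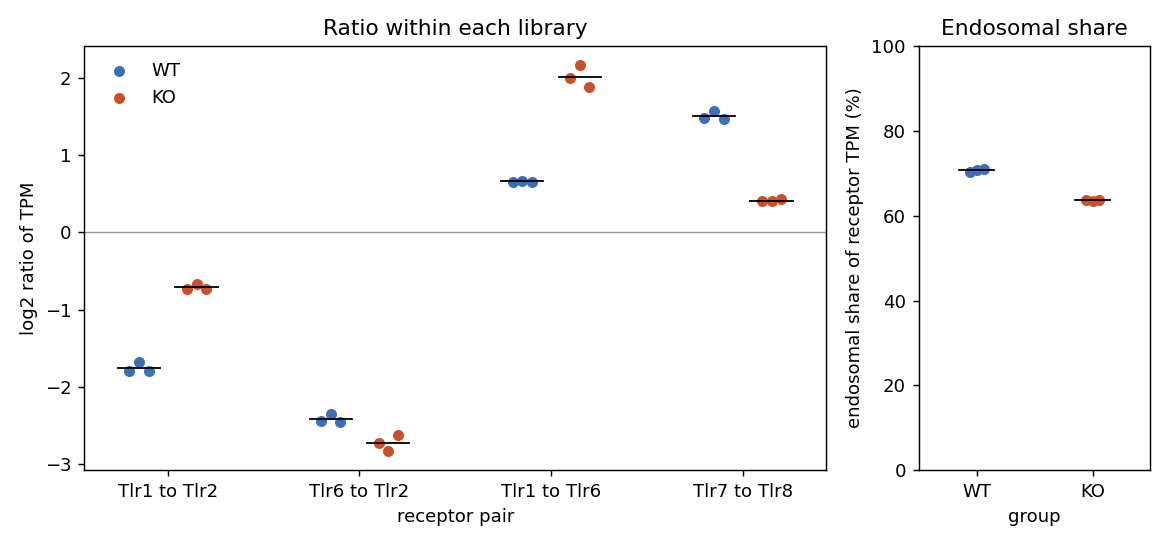
Log2 ratio of TPM for 4 receptor pairs in each of the 3 WT and 3 KO libraries, with points for libraries and bars for group means. Tlr1 to Tlr2 rises from a mean of -1.75 to -0.71, and no pair has overlapping groups.

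Surface and endosomal receptors differed in their summed level. The 4 surface receptors summed to 142.1, 136.5 and 133.8 TPM in WT and 188.8, 189.4 and 184.9 TPM in KO. The 5 endosomal receptors summed to 330.8 ± 3.70 TPM in WT and 328.9 ± 3.19 TPM in KO, and the groups overlapped in TPM. That scale lay below the count scale for the whole table. From counts, 3 of these 5 receptors passed as higher and 0 as lower (edgeR). The endosomal share of receptor TPM was 70.2%, 70.7% and 71.0% in WT and 63.7%, 63.5% and 63.8% in KO. The difference was -6.98 percentage points from TPM and -4.28 points from counts, which are not scaled for length. Within the endosomal sum, Tlr8 made up 8.72% ± 0.264 in WT and 16.7% ± 0.121 in KO, and Tlr13 made up 62.8% ± 0.230 and 56.3% ± 0.072. Within the surface sum, Tlr1 made up 16.8% ± 0.527 in WT and 31.2% ± 0.788 in KO (SD, n = 3). The shares include TPM of genes that did not pass the test from counts.

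The remaining mouse receptors were barely detected. Tlr5, the flagellin receptor, had 19, 19 and 22 counts in WT and 32, 24 and 26 in KO. Its log2 fold change of 0.50 did not pass (SE 0.23; edgeR, adjusted p = 0.0554), but it passed without KO replicate 2 (0.59; edgeR, adjusted p = 0.0463). Tlr11 and Tlr12 had at most 4 and 6 counts in any library and were removed by the filter.

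Co-receptors that deliver ligands at the surface changed in both directions. Of 6 tested, 4 were higher and 2 lower, with a median log2 fold change of 0.34. Beside this list and those below, 34.4% of all genes tested were higher and 34.9% lower from counts. On the TPM scale the shares were 20.8% and 48.9% (limma on log2(TPM + 1)). Cd14, which hands lipopolysaccharide and lipopeptides to TLR4 and TLR2, had 4593, 4585 and 4500 counts in WT and 7129, 7083 and 7212 in KO, 1.63-fold higher (edgeR, adjusted p = 2.03e-25). Ly96, which encodes MD-2, had 154, 147 and 150 counts in WT and 200, 214 and 178 in KO, with a log2 fold change of 0.45 (edgeR, adjusted p = 5.49e-05). Both rose while Tlr4 did not, and Cd14 was 11.01 ± 0.158 times Tlr4 in TPM in WT and 18.8 ± 0.749 times in KO (SD, n = 3). The TLR4 relative Cd180 and its partner Ly86 went opposite ways, Cd180 1.22-fold lower and Ly86 1.98-fold higher (edgeR, adjusted p = 1.34e-14 and 8.95e-19). Cd36, a scavenger receptor that cooperates with TLR2 and TLR6, had a log2 fold change of 0.22 (edgeR, adjusted p = 9.5e-13). Lbp, which encodes the lipopolysaccharide-binding protein, was lower at 30 to 40 counts in KO against 49 to 52 in WT (log2 fold change -0.49; edgeR, adjusted p = 0.0152). That call was lost with DESeq2 (adjusted p = 0.0921), without KO replicate 1 (edgeR, adjusted p = 0.0868) and with the assumed variation of 0.1 (edgeR, adjusted p = 0.0625).

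Of 7 genes for receptor folding and trafficking, 4 were higher, 2 lower and 1 did not pass, and on the TPM scale 2 were higher and 3 lower. Unc93b1, the chaperone that carries endosomal receptors out of the endoplasmic reticulum, had 7564, 7683 and 7780 counts in WT and 14561, 14964 and 14923 in KO. From counts it was 2.01-fold higher (log2 fold change 1.005, SE 0.02, edgeR, adjusted p = 1.08e-31). In TPM it was at 280.9 ± 2.26 in WT and 510.3 ± 9.48 in KO, while the summed endosomal receptor TPM overlapped between groups. Its TPM was 0.849 ± 0.0162 of that sum in WT and 1.55 ± 0.0394 in KO (SD, n = 3). Rab7b, a GTPase of late endosomes reported to promote TLR4 and TLR9 degradation, had 4851, 4977 and 4987 counts in WT and 2320, 2199 and 2180 in KO, 2.13-fold lower (edgeR, adjusted p = 8.47e-29). Hsp90b1, the chaperone gp96 of most receptors, had a log2 fold change of -0.13, and its co-chaperone Cnpy3 of 0.38. Cnpy4, a relative of Cnpy3, and Slc15a4, an endolysosomal transporter, passed as higher from counts (log2 fold change 0.26 and 0.16) but not on the TPM scale. 5430427O19Rik did not pass from counts (log2 fold change -0.10; edgeR, adjusted p = 0.208) but passed as lower on the TPM scale (-0.25; limma, adjusted p = 0.0019) and with library totals (-0.16; edgeR, adjusted p = 0.0474).

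Of 10 genes that process ligands or receptors in the endosome, 8 were higher and 2 lower, with the same counts on the TPM scale. Ctsk, a cathepsin, had a log2 fold change of -0.93, and Ctsl, another cathepsin, of 0.53. Pld4, an exonuclease that degrades TLR9 ligands, was higher by 0.70 on the log2 scale. Rnaset2a, a lysosomal ribonuclease, had a log2 fold change of 0.92, and its values are uncertain because of the close copy Rnaset2b; whether they share reads was not tested.

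Downstream of the receptors, adaptors other than Myd88 mostly did not pass. Of 6, 2 were higher and 4 did not pass, and on the TPM scale 1 was higher and 1 lower. Ticam2, which encodes TRAM, the bridging adaptor of TLR4 to TRIF, had 642, 671 and 640 counts in WT and 1007, 979 and 965 in KO, 1.57-fold higher (edgeR, adjusted p = 8.72e-16). Ticam1, which encodes TRIF, and Tirap, which recruits MYD88, had log2 fold changes of -0.03 and 0.05 (edgeR, adjusted p = 0.613 and 0.502). On the TPM scale Ticam1 passed as lower (log2 difference -0.16; limma, adjusted p = 0.00831). Pik3ap1 passed as higher from counts (log2 fold change 0.11) but not on the TPM scale. Sarm1 and Scimp, at no more than 15 and 55 counts in any library, did not pass (edgeR, adjusted p = 0.202 and 0.278). Without WT replicate 1, Sarm1 passed, its log2 fold change going from 0.61 to 1.37 (edgeR, adjusted p = 0.0175).

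Of 19 signalling kinases and ligases, 8 were higher, 8 lower and 3 did not pass, and on the TPM scale 3 were higher and 13 lower. On that scale 48.9% of all genes tested were lower, against 34.9% from counts. Ikbke, which encodes an IKK-related kinase, had 1363, 1304 and 1427 counts in WT and 3246, 3086 and 3120 in KO, 2.40-fold higher (edgeR, adjusted p = 1.73e-28). Irak4, the kinase recruited by MYD88, was 1.61-fold higher (edgeR, adjusted p = 5.46e-14). Chuk and Ikbkg, subunits of the IKK complex, had log2 fold changes of -0.44 and -0.30. Ikbkb, another subunit, passed as higher from counts (log2 fold change 0.14; edgeR, adjusted p = 0.000683). It did not pass on the TPM scale (0.01; limma on log2(TPM + 1), adjusted p = 0.735).

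Of 15 negative regulators, 8 were higher, 5 lower and 2 did not pass, and on the TPM scale 4 were higher and 6 lower. Irak3, which encodes the inhibitory IRAK-M, had 1325, 1345 and 1353 counts in WT and 2847, 2886 and 2782 in KO, 2.20-fold higher (edgeR, adjusted p = 1.18e-27). Tnfaip3, which encodes the ubiquitin-editing enzyme A20, went the other way with 1582, 1505 and 1488 counts in WT and 726, 720 and 727 in KO, 2.02-fold lower (edgeR, adjusted p = 1.22e-22). The phosphatase gene Ptpn6 had a log2 fold change of 0.52, and Tollip, an inhibitor of IRAK signalling, of -0.40.

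Of 10 transcription factors, 9 were higher and 1 did not pass, while on the TPM scale 5 were higher and 2 lower. Irf1 was 2.09-fold higher, with 465, 476 and 485 counts in WT and 968, 943 and 958 in KO (edgeR, adjusted p = 2.2e-21). Spi1, which encodes PU.1, had a log2 fold change of 0.41, Irf7 of 0.43 and Nfkb1 of 0.25.

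Genes that receptor signalling can induce went both ways, with 9 of 17 tested higher, 7 lower and 1 not passing. Il1b had 93, 93 and 96 counts in WT and 262, 248 and 271 in KO, 2.88-fold higher (edgeR, adjusted p = 7.44e-17), and Ccl5, a chemokine, was 2.45-fold higher. Tnf had 1700, 1815 and 1706 counts in WT and 1016, 1000 and 1026 in KO, 1.65-fold lower (edgeR, adjusted p = 3.85e-19), and Ccl3, another chemokine, was 1.801-fold lower. The cytokines of this list thus had no common direction.

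**Figure D4:**
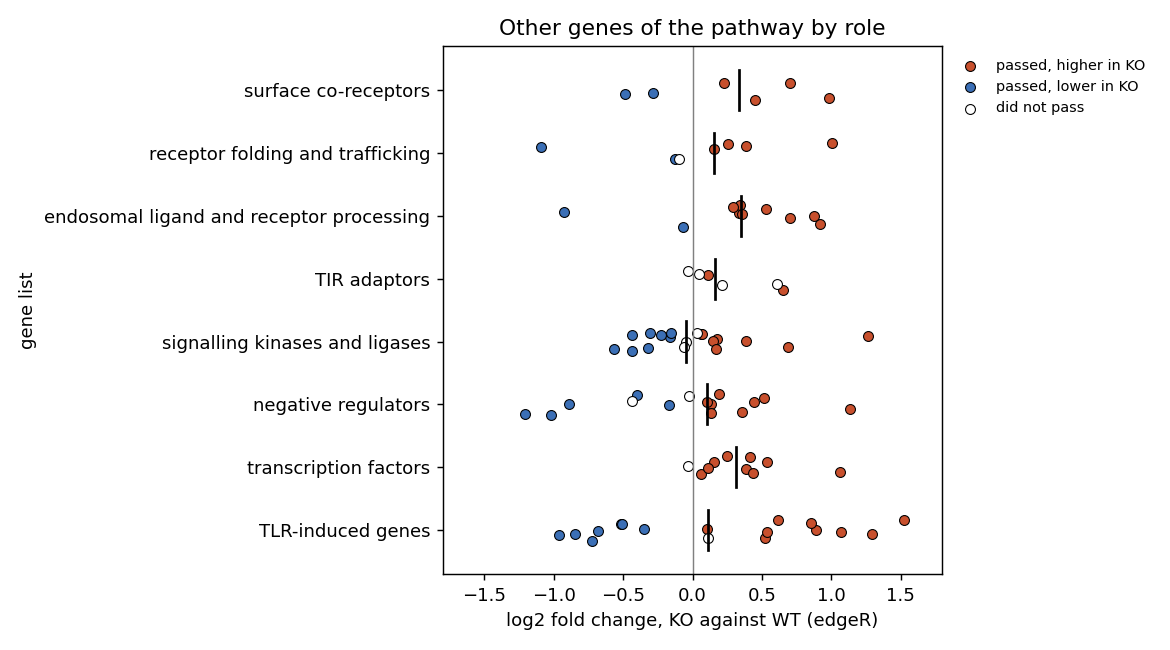
Log2 fold change of KO against WT (edgeR) for genes of the receptor pathway, 1 row per list, with points for genes and fill for those that passed at 0.05 in each direction. Points lie on both sides of 0 in most lists, with Il1b and Ikbke among the highest and Rab7b and Tnfaip3 among the lowest.

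Markers of other cells moved with the groups. Of 8 monocyte markers 6 were higher in KO and 1 lower. Chil3, among those higher, was counted both here and with the alveolar markers. The summed level of the 8 was 84.54 to 87.58 TPM in WT and 210.8 to 217.2 TPM in KO. The CPM of Ly6c2 was 15.9 ± 1.36 in WT and 59.5 ± 0.962 in KO. All 6 fibroblast markers were lower, with a sum of 38.59 to 39.84 TPM in WT and 3.59 to 3.99 TPM in KO. Neutrophil markers, of which 5 were in the table, summed to 1212 to 1247 TPM in WT and 1488 to 1536 TPM in KO. Of 3 tested, 2 were higher (S100a8 and S100a9) and 1 lower (Mmp8). S100a8 and Mmp8 made up most of that sum and went opposite ways. S100a8 was at 684.7 ± 17.1 TPM in WT and 1140 ± 23.8 TPM in KO. Mmp8 was at 541.8 ± 8.43 TPM in WT and 343.1 ± 5.94 TPM in KO. Retnlg and Cxcr2 had at most 2 and 11 counts in any library. Plasmacytoid dendritic cells and B cells are known for Tlr7 and Tlr9. Their markers summed to 5.76 to 10.1 and 10.8 to 11.5 TPM in WT and to 7.36 to 8.74 and 13.5 to 15.7 TPM in KO, and 5 of the 6 B cell markers had at most 10 counts in every library. Cox6a2 made up most of the plasmacytoid sum, at 5.67 ± 1.88 TPM in WT and 6.21 ± 0.255 TPM in KO. Of 4 plasmacytoid markers tested, Siglech was 2.55-fold and Pacsin1 4.75-fold lower and Ccr9 1.94-fold higher, each with a mean of at most 0.803 TPM, and Cox6a2 did not pass. Conventional dendritic cell markers summed to 10.7 to 12.2 TPM in WT and 16.9 to 17.9 TPM in KO. Ccr7 made up most of that sum, at 9.94 ± 1.02 TPM in WT and 15.7 ± 0.37 TPM in KO. Of the 3 tested, Ccr7 and Flt3 were higher and Zbtb46 was lower. Xcr1, Clec9a and Cd209a had at most 10 counts in every library. The part of these cells in the receptor differences was not tested.

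By distance over the 6 libraries on the log2(FPKM + 1) scale, the genes with the pattern most like Tlr1 were Slc7a7, Apoc2 and Prxl2b, at distances of 0.118, 0.306 and 0.384. Slc7a7 was 2.89-fold higher in KO, Apoc2 2.60-fold and Prxl2b 3.21-fold. The authors' deposited table for a heat map lists 6784 genes, beside 15824 in the expression table. Among those listed are 7 of the 10 genes, without Tlr4, Tlr7 and Tlr13. Listing was thus common, and no test was made of the members listed.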

How the data were processed

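PolyA-selected RNA of sorted cells was sequenced, per the labels' protocols. The submitters' processing notes list HISAT, Bowtie2 and the build GRCm38.p6 without saying what each was used for, and no counter was stated in them. The deposited expected counts are not whole for 8.66% to 9.19% of genes and were rounded. FPKM and TPM values, scaled for gene length, come from the authors and are named in the headers. A deposited normalised count signal was not used. A heat map table of the authors holds log2(FPKM + 1).

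Groups were compared with edgeR 4.0.16 (R 4.3.3; a group term, TMM, filterByExpr and the quasi-likelihood test) and Benjamini-Hochberg adjustment at 0.05. The filter removed 4007 genes. CPM use TMM-adjusted totals. Alternatives used DESeq2 1.42.0 and limma 3.58.1 (pseudocount 1 or 0.1, which understates changes of low genes). Ratios were tested by exact permutation with SciPy 1.17.1. Libraries of a group differed beyond counting noise (chi-square per gene 1.38 to 1.61). Coordinates come from RefSeq, matched for 15774 genes.

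The members and lists were chosen with earlier results of these data known. Named genes are Men1, all members, every other receptor, co-receptor, trafficking and adaptor gene listed, up to 4 genes of each other pathway list by smallest p, the X and Y genes, markers whose levels are given, and the 3 genes nearest to the member that differed most; the neighbours of Tlr1, Tlr6, Tlr7 and Tlr8 were added after their values were seen. Ikbkb was named in addition, beside the other subunits of its complex. Tril, Il23a, Ifnb1, Xist and some markers were not analysed here.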

Additional observations from a re-analysis of the deposited data

How the results depend on the processing

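Tlr1, Tlr2, Tlr8, Tlr9 and Myd88 were called higher in all fits that held them, with log2 fold changes of 1.31 to 1.497, 0.30 to 0.47, 0.91 to 1.10, 0.32 to 0.51 and 0.57 to 0.74. When the variation between libraries was set to 0.1 instead of the fitted 1.66%, 4406 genes passed, against 8179. The number of lower members, 1 with edgeR, was 3 with library totals, with limma on FPKM, and with limma on TPM at either pseudocount, where Tlr7 and Tlr13 joined Tlr4. It was 0 without the low-count filter, with DESeq2, with the assumed variation and at a threshold of 0.01; at an unadjusted p under 0.05 it was also 0 in the first 3 of these and 1 in the last. Leaving out 1 library gave 0 to 1. Tlr6 reversed to -0.0112 with TPM and a pseudocount of 1 and to -0.0119 with 0.1. The endosomal share differed by -6.98 percentage points in KO, and by -4.28 from counts and -6.59 without Tlr2. The cause was not tested.

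With the replicate number as a block, 8321 genes passed, 7 members were higher and 1 lower, and the mean log2 ratio differences stayed 1.05, -0.31, 1.36 and -1.09 by construction. Libraries with the same number had correlated deviations of 0.106, 0.058 and 0.081, and different numbers of -0.068 to -0.01. Each library thus correlated best with its own number, a hint from the data and not the design, and the numbers were not taken as pairs.

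Depth limits Tlr3, Tlr5, Tlr11 and Tlr12, and 3 libraries a group limit the ratios, whose exact p cannot fall below 0.1.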
